A study of Drosophila melanogaster with 2 samples.

Results

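Small-subunit cytoplasmic ribosomal protein genes are described here as a family of 39 genes. They were chosen by name, as all protein-coding genes of the Ensembl annotation whose symbol starts with RpS, plus sta, and they make up 39 of the 13945 protein-coding genes on chromosomes 2L, 2R, 3L, 3R, 4 and X. The rule for membership uses the name alone and no measured value, although the family was taken up with earlier results of these data known. The samples were 2 biological replicates of whole Drosophila melanogaster embryos, of both sexes and 0 to 24 hours old, from a single transgenic line that stably carries NC2alpha with GFP at its C-terminal end. Protein-bound chromatin was sheared by sonication and precipitated with an antibody to GFP, although the antibody field of the labels names NC2alpha itself. Only the tagged form was followed, the embryos pool every cell type and stage of that window, and there was no second genotype, treatment or time to compare. In such material, binding in few cells and weaker binding in many cells cannot be told apart.

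NC2alpha (Drap1 in vertebrates) pairs with NC2beta (Dr1) through histone folds, and the dimer clamps DNA-bound TATA-binding protein, TBP. In Drosophila extracts NC2 represses TATA-dependent transcription and stimulates promoters with a downstream promoter element. Ribosomal protein genes use neither element as a rule: most start at a polypyrimidine initiator called TCT, and in flies their transcription has been tied to the TBP-related factor TRF2. The proteins they encode form the body, platform and head of the subunit that reads the mRNA, and loss of a single copy of many of these genes gives the slow-growing Minute flies with thin bristles.

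The start sites on which the results turn are printed from the Release 6 (dm6) reference sequence of RefSeq, read 5′ to 3′ on the strand of the gene. Each line of 81 bases runs from 60 bases before to 20 bases after an annotated transcription start site (TSS). Capitals mark TCT, searched as CTTT with 2 pyrimidines on each side and starting from -12 to 8 around the TSS on the sense strand, and the core of the DNA replication-related element (DRE), TATCGATA. A match is a description of letters and not a site shown to be used. Members with a TCT match and a reproducible NC2alpha peak come first, since they show the initiator that the peaks sit beside. RpS27, whose TCT start lies inside a transcript from an upstream start, is given as 30 bases only, from 10 before to 19 after that TSS (chr3R:25247453-25247482, minus strand).
RpS27: atttaccccactTCCTTTTCcgtgttagct
The next 6 lie at chrX:19597980-19598060 (RpS10b, plus), chrX:9554563-9554643 (RpS28b, plus), chrX:17148244-17148324 (RpS5a, minus), chr2L:10408292-10408372 (RpS27A, plus), chrX:7933682-7933762 (RpS14a, plus) and chrX:16637834-16637914 (RpS19a, plus).
RpS10b: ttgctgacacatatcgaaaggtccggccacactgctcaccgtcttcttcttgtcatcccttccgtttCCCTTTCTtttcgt
RpS28b: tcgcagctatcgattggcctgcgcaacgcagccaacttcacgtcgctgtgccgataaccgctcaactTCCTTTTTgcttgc
RpS5a: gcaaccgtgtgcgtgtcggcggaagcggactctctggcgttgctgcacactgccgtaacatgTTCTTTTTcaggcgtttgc
RpS27A: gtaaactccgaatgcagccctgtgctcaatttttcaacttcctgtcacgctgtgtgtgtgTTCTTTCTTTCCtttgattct
RpS14a: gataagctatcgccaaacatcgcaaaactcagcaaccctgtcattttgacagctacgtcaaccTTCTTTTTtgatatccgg
RpS19a: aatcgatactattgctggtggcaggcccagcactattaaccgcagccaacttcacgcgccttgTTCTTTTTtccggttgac
Members with a reproducible peak but no TCT match in that window are shown for contrast, at chr3R:20822121-20822201 (RpS20, plus), chr3R:11216267-11216347 (RpS25, minus), chr3L:13023292-13023372 (RpS12, plus) and chr4:67187-67267 (RpS3A, minus). RpS12 does have matches past that window, with the C of CTTT at 20 and 24 bases after the TSS, where the printed line ends.
RpS20: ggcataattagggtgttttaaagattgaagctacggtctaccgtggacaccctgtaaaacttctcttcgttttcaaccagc
RpS25: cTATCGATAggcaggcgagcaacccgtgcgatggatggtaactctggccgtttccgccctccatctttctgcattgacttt
RpS12: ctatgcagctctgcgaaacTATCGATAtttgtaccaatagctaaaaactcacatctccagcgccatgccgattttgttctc
RpS3A: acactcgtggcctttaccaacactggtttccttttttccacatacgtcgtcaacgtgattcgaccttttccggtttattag
The third set holds a TCT match without a peak in the reproducible list, at chr3R:23358752-23358832 (RpS3, plus) and chrX:7934838-7934918 (RpS14b, plus).
RpS3: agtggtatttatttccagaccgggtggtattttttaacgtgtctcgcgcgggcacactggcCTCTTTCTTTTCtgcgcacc
RpS14b: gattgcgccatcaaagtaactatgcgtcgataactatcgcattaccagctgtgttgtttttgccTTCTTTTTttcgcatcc
The last set shows copies known for germline expression, at chr3R:14901543-14901623 (RpS5b, minus), chr3R:23933510-23933590 (RpS19b, minus) and chr3R:27652700-27652780 (RpS10a, plus).
RpS5b: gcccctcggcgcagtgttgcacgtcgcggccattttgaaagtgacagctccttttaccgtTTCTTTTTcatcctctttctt
RpS19b: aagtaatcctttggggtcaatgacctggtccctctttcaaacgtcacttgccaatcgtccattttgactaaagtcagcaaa
RpS10a: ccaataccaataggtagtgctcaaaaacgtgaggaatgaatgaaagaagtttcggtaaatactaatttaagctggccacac

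The values behind the results are peaks that the authors deposited, each with a signal value, a -log10 q value and a summit. The signal value ranks peaks within a list, on a scale not given in the sources used here. Read depth is unknown. A list made from both replicates together (the pooled list) held 30000 peaks down to a signal of 23.8, and the authors' reproducible subset of it (the optimal list) held 2174 peaks with a median of 118 and a lowest value of 82. The list of replicate 1 held 30000 peaks and that of replicate 2 held 29999. A gene was given every peak with a summit within 500 bp of any of its TSSs, and its signal is that of the strongest of these.

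Of the 39 small-subunit genes, 19 had an optimal peak at a TSS (48.7%; exact 95% Clopper-Pearson interval 32.4 to 65.2, which covers counting error only). The large-subunit genes, whose symbols start with RpL, had one at 35 of 54 (64.8%; 50.6 to 77.3), and all protein-coding genes at 1460 of 13945 (10.5%). The 19 genes held 19 distinct peaks. Before the authors' filter, 34 of the 39 small-subunit genes had a pooled peak (87.2%), as did 48 of the 54 large-subunit genes (88.9%) and 51.3% of all protein-coding genes. A further 15 members therefore held a peak that ranked below the optimal list, and 5 members, RpS3, RpS10a, RpS15Ab, RpS24 and RpS28-like, held none. Counting every gene, with a gene lacking a peak placed below the lowest value, the median signal was 78.2 for small-subunit genes, 124 for large-subunit genes and 24.5 for all protein-coding genes.

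The shares were followed along the pooled list from its strongest peaks downward. Among the 500 strongest pooled peaks, 5 small-subunit genes (12.8%; interval 4.3 to 27.4), 18 large-subunit genes (33.3%; 21.1 to 47.5) and 2.75% of all protein-coding genes had a peak. Among the 1087 strongest, the members numbered 13 and the large-subunit genes 28, against 5.72% of all protein-coding genes. At 4348 peaks the counts were 24 small-subunit and 42 large-subunit genes, with 18.8% of all protein-coding genes. At 10000 peaks they were 32 small-subunit genes (82.1%) and 45 large-subunit genes (83.3%), with 31.6% of all protein-coding genes. The members' share lay under that of the large subunit at each of these depths, and the intervals of the ribosomal gene groups overlapped at each depth; the difference between the subunits was not tested.

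**Figure D1:**
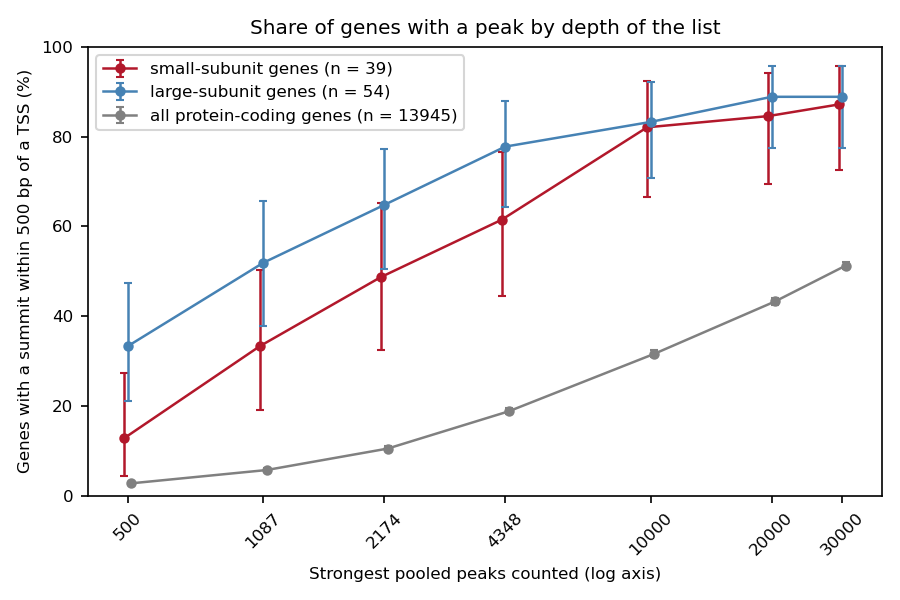
Share of genes (%) with a summit within 500 bp of a TSS against the number of strongest pooled peaks counted (log axis), for small-subunit, large-subunit and all protein-coding genes; bars are exact 95% binomial intervals. At 2174 peaks the shares were 48.7%, 64.8% and 10.5%.

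Each replicate list was also read alone. The whole list of replicate 1 put a peak at 37 of 39 members, against 52.9% of all protein-coding genes, and its 2174 strongest peaks put one at 20 members, against 10.2%. The whole list of replicate 2 put a peak at 33 of 39 members, against 45%, and its 2174 strongest peaks at 19, against 10.7%. A total of 17 members (43.6%) were among the 2174 strongest peaks of both replicates, against 1010 protein-coding genes (7.24%). RpS12, with an optimal peak, fell outside the 2174 strongest of replicate 2 at rank 2265, and RpS19a fell outside those of replicate 1 at rank 4705. Conversely, RpS2 entered the strongest 2174 of replicate 1, at rank 1479, without an optimal peak. Only RpS28-like had no peak in any list, whereas 5193 of the 13945 protein-coding genes had none.

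RpS27 stood highest in the family. It encodes a zinc-binding protein of the platform (FBgn0039300; chr3R:25245955-25247514, minus strand), and its peak had a pooled signal of 437, rank 51 of 30000, with 237 in replicate 1 and 197 in replicate 2. The summit at 25247516 lay at -2 bp from its upstream TSS, where negative is upstream. The same peak was within reach of Nup37, a nuclear pore gene with its TSS on the other side (-142 bp), and of the non-coding sisRNA:CR46364 (-94 bp). The peaks of RpS27 and RpS10b were deposited at 231 and 133 bp wide, and the other 32 members with a pooled peak had intervals of 404 bp.

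RpS10b encodes a protein at the mRNA entry side of the head (FBgn0285947; chrX:19598031-19599806, plus), and its signal was 297, rank 131, with 167 in replicate 1 and 131 in replicate 2. Its summit at 19598010 lay at -21 bp, and no other protein-coding gene shared the peak. RpS28b, whose product lines the mRNA exit channel (FBgn0030136; chrX:9554623-9555661, plus), had a signal of 199, rank 363, with 108 in replicate 1 and 87.9 in replicate 2. The summits of both replicates and of the pooled peak fell on the same base there, at -2 bp and position 9554621. Of the 10 strongest members, RpS10b, RpS28b, RpS12, RpS4 and RpS23 had a peak that no other coding gene shared.

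RpS20, a head protein gene (FBgn0019936; chr3R:20822181-20823356, plus), had a signal of 249.6, rank 202, with 132 in replicate 1 and 112 in replicate 2. It was the exception in position: its summit at 20822019 lay at -162 bp, in the interval shared with the divergent gene CG17271, at -171 bp from a TSS of that gene. The replicate summits of RpS20 lay at -160 and -222 bp. RpS25 (FBgn0086472; chr3R:11215028-11216287, minus), known from human and yeast cells for its part in initiation from internal entry sites, had a signal of 202, rank 355, with 117 in replicate 1 and 76.4 in replicate 2. The RpS25 summit at 11216312 lay at -25 bp, and the peak also reached CG4820 at -223 bp. Neither of these genes had a TCT match in the searched window.

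RpS16 (FBgn0034743; chr2R:22605745-22607995, plus) encodes a head protein whose tail reaches the peptidyl site, and its signal was 169, rank 530, with 112 in replicate 1 and 61.7 in replicate 2. Its summit at 22606079 lay at -48 bp from the downstream TSS of the gene and at -412 bp from CG4294. RpS12 (FBgn0286213; chr3L:13023352-13024762, plus), a beak protein that in flies is needed for the competitive loss of Minute cells, had a signal of 144, rank 734, with 103 in replicate 1 and 34.5 in replicate 2. With a ratio of 2.99, RpS12 was the single optimal member whose replicates differed by more than 2-fold. Its summit at 13023365 lay at 13 bp downstream of the only annotated TSS, and a small nucleolar RNA within the gene, snoRNA:Me28S-A774b, was in reach at -215 bp.

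RpS21 (FBgn0015521; chr2L:2856070-2857029, plus), known in flies for overgrown larval blood organs when mutated, had a signal of 139.6, rank 776, with 72.1 in replicate 1 and 62.7 in replicate 2. The summit at 2856065 lay at -5 bp, and CG3104 was in reach at -287 bp. RpS4 (FBgn0011284; chr3L:13041756-13044234, plus), which encodes a body protein that binds ribosomal RNA early, had a signal of 134, rank 851, with 82.5 in replicate 1 and 57.8 in replicate 2, and its summit at 13041772 lay at 16 bp. RpS23 (FBgn0033912; chr2R:14215096-14216627, minus) encodes a protein of the decoding centre. Its signal was 129.8, the median of the 19 optimal members, with 76.9 in replicate 1 and 50.4 in replicate 2, and its summit at 14216563 lay at 15 bp.

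The middle of the optimal range was narrow. RpS3A, the Minute gene of chromosome 4, had 128 (73.8 in replicate 1 and 55.5 in replicate 2), and RpS5a, on the X, had 123 (72.04 in replicate 1 and 55.3 in replicate 2). RpS29, which encodes a zinc-binding head protein, had 122, with 72.5 in replicate 1 and 47.9 in replicate 2. RpS27A, which encodes ubiquitin fused to a ribosomal protein, had 114, with 69.98 in replicate 1 and 42.9 in replicate 2. RpS15Aa (68.1 and 42.5 in replicates 1 and 2) and RpS18 (63.7 and 36.2) followed at 112 and 106.

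The 3 weakest members of the optimal list were close to its lower end of 82. RpS14a (FBgn0004403; chrX:7933742-7934677, plus), a platform protein gene, had 99.6, with 60.3 in replicate 1 and 38.4 in replicate 2, and its summit at 7933709 lay at -33 bp. The gene sta (FBgn0003517; chrX:1481797-1483413, minus), named stubarista for its short bristles and antennal change and homologous to the laminin receptor, had 90.2, with 61.9 in replicate 1 and 36.1 in replicate 2. Its summit at 1483242 lay at 50 bp downstream of a TSS, and inc, which starts divergently, was at -237 bp. RpS19a (FBgn0010412; chrX:16637894-16639249, plus), whose human counterpart is mutated in Diamond-Blackfan anaemia, had 86.3, with 35.3 in replicate 1 and 48.4 in replicate 2. It was the only optimal member with the higher value in replicate 2 and the only one whose -log10 q, at 2.9, was under the maximum of 3.59. RpS19a and RpS2 were the members just inside and just outside the optimal list, at 86.3 and 78.2.

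**Figure D2:**
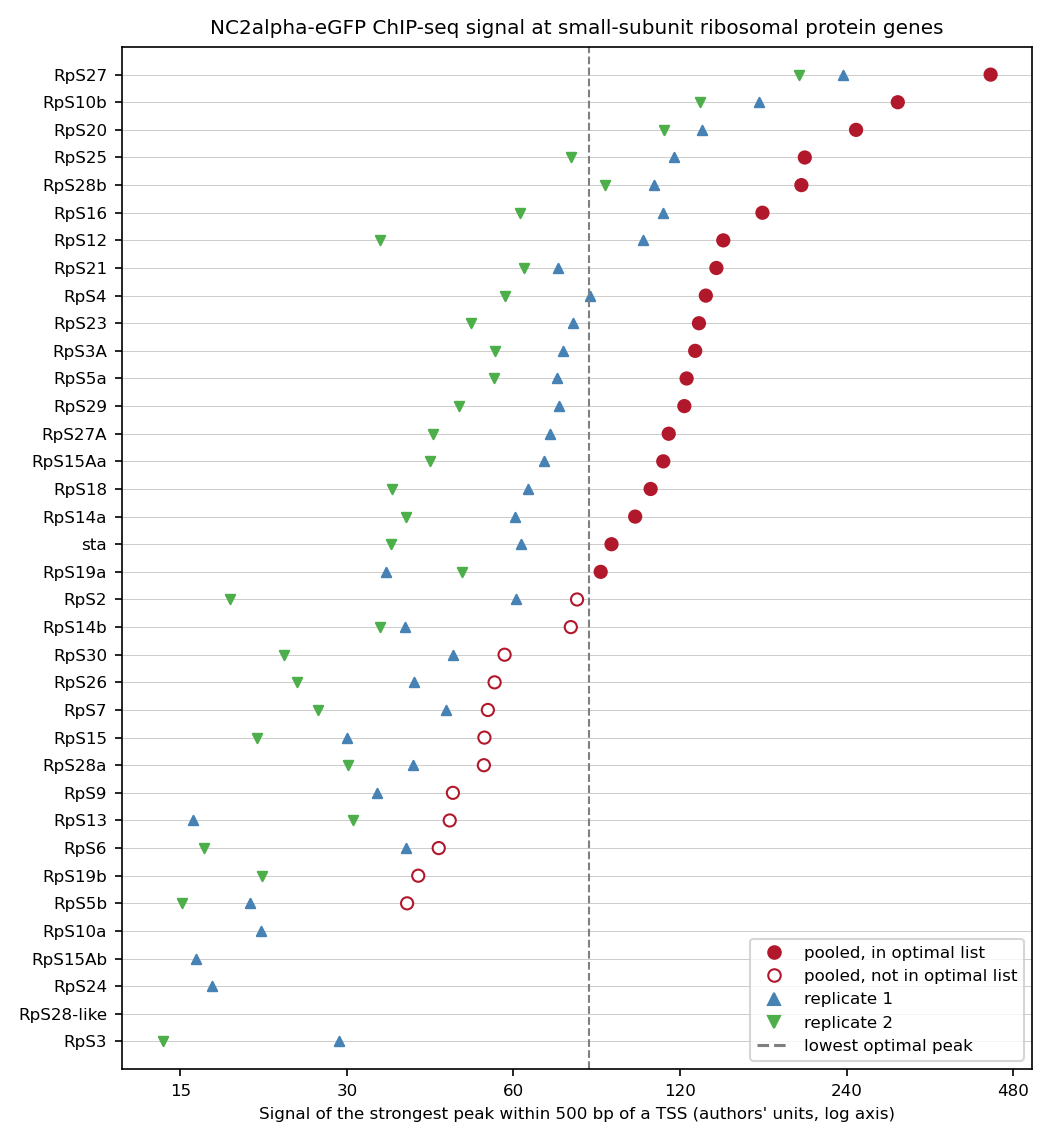
Signal of the strongest peak within 500 bp of a TSS (authors' units, log axis) for 36 small-subunit genes, in the pooled list (circles, filled where the peak is in the optimal list) and in the lists of replicates 1 and 2 (triangles, which at RpS30, RpS26, RpS7 and RpS28a in replicate 1 and at RpS6 in replicate 2 stand for a peak that does not overlap the pooled peak). The highest pooled value is 437 at RpS27, 19 of the values lie right of the dashed line at the lowest optimal peak, and RpS28-like has no symbol.

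Across the 19 optimal members, replicate 1 gave the higher value in 18, with a median ratio of replicate 1 to replicate 2 of 1.52 (range 0.731 to 2.99). The median ratio was 1.44 over the 35 large-subunit genes and 1.24 over 1445 protein-coding genes with an optimal peak and a value in both replicates, of which 231 differed by more than 2-fold. Over optimal peaks, the median ratio of pooled to replicate signal was 1.76 for replicate 1 and 2.3 for replicate 2. Values in replicate 2 were thus lower in general, and the higher value does not mean the higher rank. By rank within each list, RpS20, RpS28b, RpS21, RpS5a and RpS19a stood higher in replicate 2, and the other optimal members in replicate 1. The optimal list was derived from both replicate lists, so the likeness of the replicates at these genes is in part set by that choice. In the deposited units, neighbouring members in the middle of the range differed less than their replicates did, which includes the lower level of replicate 2. Recomputed on the pooled scale without replicate 1 and without replicate 2, RpS3A had 128 and 130, and RpS5a 127 and 127. The 2 values were farther apart at RpS29 (110 and 128), RpS27A (98.8 and 123), RpS15Aa (97.8 and 120) and RpS18 (83.5 and 112).

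**Figure D3:**
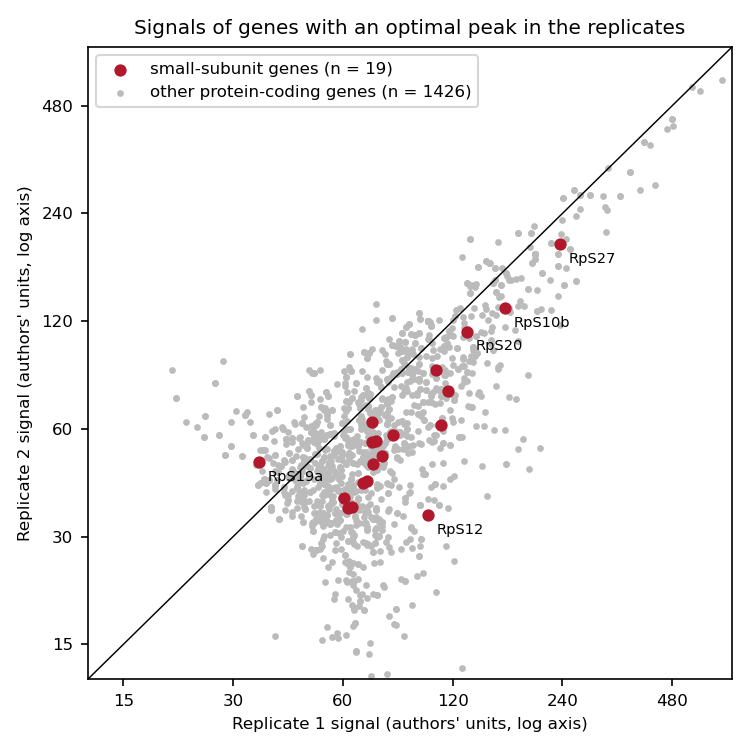
Signal in replicate 2 against replicate 1 (authors' units, log axes) for 19 small-subunit genes and 1426 other protein-coding genes with an optimal peak; the line marks equal values. All small-subunit genes but RpS19a lie under the line, and RpS12 lies farthest under it. Values were lower in replicate 2 in general, so the line does not mark equal rank.

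Summits lay close to the start of transcription. The median position over the 19 optimal members was -19 bp (quartiles -34.5 and 8.5), against -18 bp over the 35 large-subunit genes and -109 bp (quartiles -203 and -32) over all 1460 protein-coding genes with an optimal peak. The summit was within 60 bp of a TSS at 18 of the 19 members (94.7%), at 27 of 35 large-subunit genes (77.1%) and at 397 of 1460 protein-coding genes (27.2%). Because a peak between divergent genes is given to both, the count was repeated for genes that hold the TSS nearest to the summit: it was 18 of 19 small-subunit genes (94.7%), 27 of 33 large-subunit genes (81.8%) and 386 of 1075 protein-coding genes (35.9%), with median distances of 21, 21 and 95 bp. Of the 19 summits, 6 lay downstream of the TSS, at RpS12, RpS4, RpS23, RpS18, sta and RpS19a. The summit was downstream at 6 of 35 large-subunit genes and at 247 of 1460 protein-coding genes. These counts were not tested. Read in each replicate alone, the summit was within 60 bp at 17 members in replicate 1 and at 13 in replicate 2, with medians of -14 and -17 bp. Summits of single replicates were not counted for the large-subunit genes or for all protein-coding genes.

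**Figure D4:**
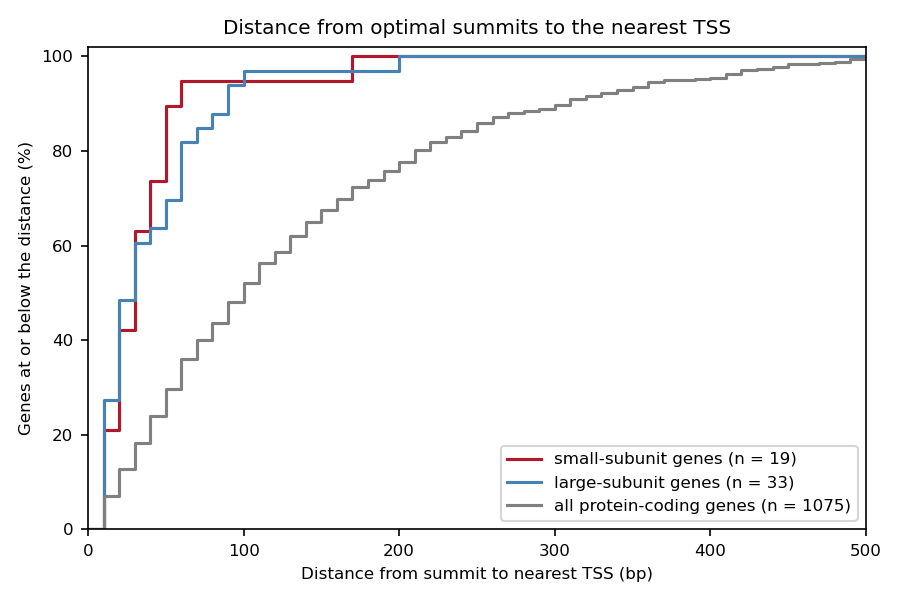
Cumulative share of genes (%) whose optimal summit lies within a given distance (bp) of their TSS, for genes that hold the nearest TSS: 19 small-subunit, 33 large-subunit and 1075 protein-coding genes. The small-subunit curve reaches 94.7% by 60 bp, where the curve of all protein-coding genes is at 35.9%.

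The TCT initiator gave a second ruler. At any TSS, 26 of the 39 small-subunit genes had a match (66.7%), against 44 of 54 large-subunit genes (81.5%) and 242 of 13945 protein-coding genes (1.74%). The match was in 14 of the 19 members with an optimal peak and in 12 of the 20 without. Its C, the base at which TCT promoters start, lay from 0 to 9 bases downstream of the annotated TSS, with a median of 4. In the 14 members with both a match and an optimal peak, the summit lay at a median of -38.5 bp from that C (range -77 to 12). It was downstream of the C only at RpS23, by 9 bp, and at RpS18, by 12 bp.

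The remaining promoter motifs were searched from -150 to 50 around 1 representative TSS of each gene, on both strands. TATCGATA was in 13 of 39 small-subunit genes (33.3%), against 13 of 54 large-subunit genes (24.1%) and 8.08% of all protein-coding genes. It was in 7 of the 19 optimal members, RpS10b, RpS12, RpS14a, RpS15Aa, RpS16, RpS25 and RpS29, and in 6 of the other 20. Motif 1, GGTCACAC, which the factor M1BP binds, was in 5 members (12.8%), among them RpS9, RpS15, RpS23 and sta, against 7.1% of all protein-coding genes. The E-box CAGCTG was in 5 members (12.8%), against 14.2%, and CATCNCTA was in 2 (5.13%), against 5.47%. GAGAGAG was in no member, against 4.7% of all protein-coding genes, and TATAAA, searched from -45 to -20 on the sense strand, was in no member, against 8.15%. These shares were not tested, and no motif was found in all members with an optimal peak.

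Of the 19 optimal peaks, 10 (52.6%) were also within reach of a TSS of another protein-coding gene, against 20 of 35 for the large subunit (57.1%) and 784 of 1460 for all protein-coding genes (53.7%). The signal of such a peak cannot be divided between the genes. In 9 of the 10 the summit was nearer to the ribosomal gene, and in the last, RpS27A, it was equally far (-41 bp) from Ip259, whose annotated start is the same base. Besides those named above, RpS18 shared its peak with plu at -316 bp, RpS14a with Dhdds at -358 bp, and RpS19a with Rok at -484 bp. With a limit of 200 bp in place of 500 bp only 3 were shared, while the count of members with an optimal peak stayed at 19. Shared peaks at 200 bp were not counted for all protein-coding genes, of which 1057 had an optimal peak at that limit. Whether the fall is particular to the family therefore cannot be told. A divergent protein-coding TSS lay within 500 bp upstream of 9 of the 19 optimal members, and of 6 of the 20 others. The share over all protein-coding genes was not counted, and the difference was not tested.

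A pooled peak outside the optimal list was found at 15 members. The strongest was RpS2 (FBgn0004867; chr2L:9896265-9897552, minus), known in flies as string of pearls for its arrested ovaries, with 78.2, rank 2364. It had 60.7 in replicate 1 but 18.5 in replicate 2, and its summit at 9897539 lay at 13 bp. RpS14b followed with 76.2, rank 2473, and with less difference between replicates.

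The summits of these 15 were more scattered than those of the optimal members: 7 lay within 60 bp of a TSS and 7 more than 150 bp away. Positions were not counted for all protein-coding genes with a pooled peak outside the optimal list. Whether the scatter is particular to the family therefore cannot be told. RpS15, a head protein gene, had its summit exactly on the TSS (0 bp; 53.2), and RpS26 (-11 bp; 55.5), whose product sits at the mRNA exit, RpS6 (36 bp; 44.0), whose product is the classic target of S6 kinase, and RpS9 (42 bp; 46.6) were also near. RpS30, which encodes a ubiquitin-like fusion, had its strongest pooled summit at 281 bp with 57.8 and a second pooled peak at -39 bp with 54.8. RpS7 showed the same arrangement in the pooled list, with 53.9 at 381 bp and 47.4 at 25 bp. The replicates differed in which peak was stronger. In replicate 1 the strongest summit lay at the start site of both genes, at -24 bp for RpS30 (46.7) and at -1 bp for RpS7 (45.3), whereas in replicate 2 it lay inside them, at 277 bp for RpS30 (23.1) and at 344 bp for RpS7 (26.6).

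For some of the 15 another gene was nearer. The RpS13 peak (46.0) had its summit at -173 bp from that gene but at -20 bp from CSN8, a subunit of the COP9 signalosome. The RpS6 summit was 7 bp from a start of the pseudogene CR33222 and 36 bp from RpS6. The stronger pooled summit of RpS7, at 381 bp from its TSS, lay at -274 bp from snoRNA:Psi28S-2626, which is inside RpS7. RpS9 lacked a peak in replicate 2, and RpS19b lacked one in replicate 1. In replicate 1, RpS13 had only 15.8, against 30.8 in replicate 2.

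**Figure D5:**
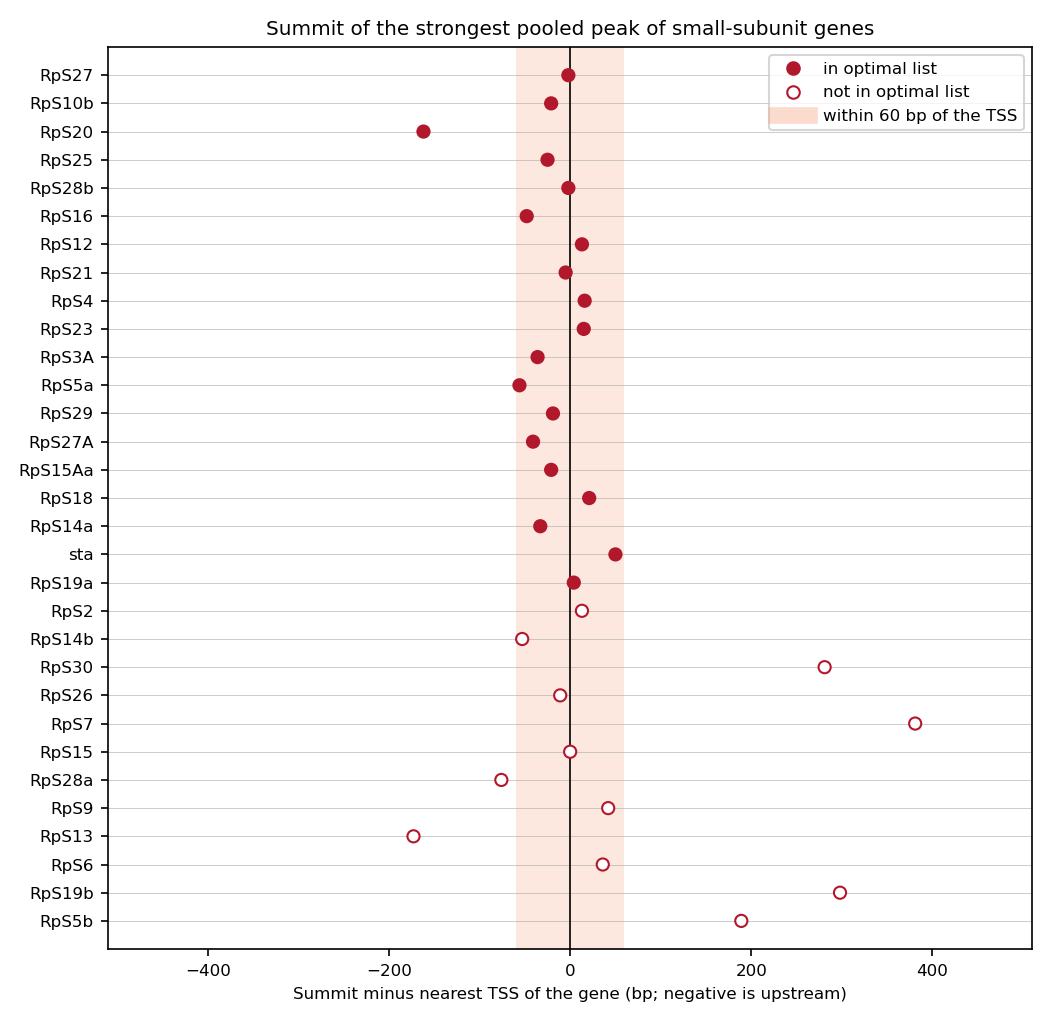
Position of the summit of the strongest pooled peak relative to the nearest TSS of the gene (bp, negative is upstream) for 31 small-subunit genes, in order of signal; filled circles are optimal peaks and the band marks 60 bp on each side. All filled circles but RpS20 at -162 bp lie in the band, while 5 of the 12 open circles lie more than 150 bp from the TSS.

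No pooled peak lay at a TSS of the remaining 5 members. RpS3 (FBgn0002622; chr3R:23358812-23360207, plus) encodes a protein at the mRNA entry channel and is a Minute gene. It had 29.0 in replicate 1, at 460 bp, and 14.0 in replicate 2, at -253 bp, and its nearest pooled summit lay at 650 bp with a signal of 57.9, inside the gene. RpS24 (FBgn0261596; chr2R:22640526-22641419, minus), whose human counterpart is also mutated in Diamond-Blackfan anaemia, had 17.1 in replicate 1 and no peak in replicate 2. Its nearest pooled summit lay at 538 bp with 37.9, just beyond the limit of 500 bp. The start sites of both genes carry a TCT match.

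RpS10a (FBgn0027494; chr3R:27652760-27653363, plus), RpS15Ab (FBgn0033555; chr2R:10821676-10822399, plus) and RpS28-like (FBgn0085211; chr2L:9436804-9437227, plus) make up the rest, and none of them has a TCT match. RpS10a had 20.9 in replicate 1, and its nearest pooled summit was 2575 bp away. RpS15Ab had 16.0 in replicate 1, with the nearest pooled summit at -1751 bp. RpS28-like had no peak in any list, with the nearest at -5421 bp. RpS10a, RpS15Ab and RpS28a are the 3 members without an intron. None of them had an optimal peak, which 94 of 2215 protein-coding genes without an intron had (4.24%), so the count of 3 says little.

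Several small-subunit proteins are encoded by more than 1 gene, and the copies differed in signal. RpS5a (FBgn0002590; chrX:17143588-17148264, minus; summit 17148320 at -56 bp) had 123, while RpS5b (FBgn0038277; chr3R:14900432-14901563, minus; summit 14901374 at 189 bp) had 38.5, with 20.01 in replicate 1 and 15.1 in replicate 2. Their proteins, which line the exit site for tRNA, were 79.4% identical. RpS10b had 297, and RpS10a, whose protein was 72.9% identical to it, had no pooled peak. RpS15Aa (FBgn0010198; chrX:13335637-13337705, minus; summit 13337659 at -21 bp) had 112, and RpS15Ab, 97.7% identical in protein, had none.

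The remaining sets were read the same way. RpS19a had 86.3, and RpS19b (FBgn0039129; chr3R:23932729-23933530, minus; summit 23933232 at 298 bp), 65.2% identical in protein, had 40.4, with no peak in replicate 1 and 21.1 in replicate 2. RpS28b had 199, and RpS28a (FBgn0039739; chr3R:30022345-30022648, minus; 81.5% identical) had 53.1, with 30.1 in replicate 2. Its strongest peak in replicate 1, at 39.5, had its summit at 483 bp and did not overlap the pooled peak. The RpS28a summit at 30022724 lay at -76 bp, and Axn, the Wnt pathway scaffold, was in reach at -118 bp. RpS28-like was 38.2% identical to RpS28b and had none.

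RpS14a and RpS14b are a special case, because they lie 1156 bp apart on the X and encode the same 151 residues (100% identity). RpS14b (FBgn0004404; chrX:7934898-7935792, plus; summit 7934845 at -53 bp) had 76.2, with 38.2 in replicate 1 and 34.4 in replicate 2, against 99.6 for RpS14a. Their surroundings within 500 bp of the TSSs share an identical run of 122 bp. A read that lies wholly inside this run could not be placed on either copy with certainty. Read length was not considered, and whether the run lies under either peak was not examined. How the authors treated such reads was not given in the sources used here. In the other sets the longest shared run was between 10 and 26 bp.

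The copies RpS5b, RpS10a, RpS19b, RpS28a and RpS28-like are known from adult flies for expression in ovary or testis. None of these 5 had an optimal peak (the exact 95% interval reaches 52.2%), and 3 had a pooled peak, up to 53.1 at RpS28a. Beside the 10.5% and 51.3% of all protein-coding genes, counts this small do not set the 5 copies apart from genes in general. Of the other 34 members, 19 had an optimal peak and 31 a pooled peak. A TCT match was found in 1 of the 5, RpS5b, and in 25 of the 34. Whether these copies were expressed in the embryos was not measured.

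Features of the genes that played no part in the choice were set side by side. The median gene length was 1356 bp for small-subunit genes, 1315 bp for large-subunit genes and 2166 bp for all protein-coding genes, and the median 5′ UTR length was 74, 65.5 and 116 bp in the same order. Base composition from -150 to 50 was similar, with a median GC content of 40.8%, 41.3% and 39.8%. Within the family it was 42.3% for the 19 optimal members and 37.5% for the other 20. At least 1 annotated snoRNA lies inside 13 of the 39 members, 16 of 54 large-subunit genes and 87 of 13945 protein-coding genes, and 8 of the 13 hosts among the members had an optimal peak, beside 35 of the 87 protein-coding hosts (40.2%). RpS5a, with 14 snoRNAs, and RpS7, with 7, hold the most.

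By chromosome, 7 of the 9 members on the X had an optimal peak: RpS10b, RpS28b, RpS5a, RpS15Aa, RpS14a, sta and RpS19a, with RpS14b and RpS6 outside. Among all protein-coding genes of the X the share was 8.65%. The members' count was 2 of 6 on 2L (10.3% of all protein-coding genes there), 3 of 7 on 2R (9.85%), 2 of 4 on 3L (11%), 4 of 12 on 3R (12%) and 1 of 1 on chromosome 4 (5%). These counts are small and were not tested.

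Genes that act on the same subunit were read for comparison, from a list of 32 symbols for the 40S partner RACK1 and for assembly factors, of which 30 matched a gene. Of these, 2 had an optimal peak (6.67%; interval 0.818 to 22.1), which is near the 10.5% of all protein-coding genes, and 24 of 30 a pooled peak, beside 51.3%. Rack1, which encodes the scaffold bound to the head of the subunit, had 137, with 85.8 in replicate 1 and 57.7 in replicate 2, a summit at 2 bp and a TCT match. Fib, the methyltransferase fibrillarin, had 89.1, with 68.5 in replicate 1 and 18.7 in replicate 2. The replicate values of Rack1 were also those of mts, and the replicate values of Fib also those of CG3085. These peaks were therefore within reach of another protein-coding gene, and their signal cannot be divided between the genes. The next were RIOK1 (70.2), CG7728 (67.1) and l(1)G0020 (62.6), none of them in the optimal list. TCT matches were found in 2 of the 30, beside 1.74% of all protein-coding genes.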

How the data were processed

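NC2alpha-eGFP chromatin from 2 biological replicates of 1 group was analysed from peak lists on dm6. Per the notes that accompany the deposited lists, the authors made the replicate and pooled lists against a control alignment and derived the optimal list from the pooled list and both replicate lists. Caller, aligner and reproducibility threshold were not given in the sources used here. Signal and the -log10 q value of each peak are the authors' values as deposited. The summit offset (other) deposited by the authors placed each summit, counted from 1. Lists on dm3 were not used, and 0 columns belonged to other samples.

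Genes and start sites came from Ensembl release 115, and sequences from the RefSeq Release 6 FASTA. Peaks were given to every gene with a TSS within 500 bp of the summit. With 1 group no test was made: counts have exact 95% binomial intervals from scipy. TCT matches at any TSS were used. The assignment of peaks was tested on simulated data. Protein identity came from global alignment of the translated annotation. Python 3.11.15, numpy 2.4.6, pandas 2.3.3, scipy 1.17.1, matplotlib 3.10.9 and biopython 1.88 were used.

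The members, gene lists and motifs were chosen with earlier results of these data known. Full values were given for the 10 strongest optimal members, the 3 weakest of them, the 3 strongest outside the list, members with no pooled peak and duplicated members, apart from 3 members that enter the counts but are not reported here one by one. Alternatives changed the distance, the gene given to a peak, the TSS set, the peak threshold, the motif window and the replicate. Depth per sample is unknown, so no interval covers it.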

Additional observations from a re-analysis of the deposited data

How the results depend on the processing

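The count of 19 members with an optimal peak was 19 at 200 bp, 20 at 1000 bp, and 19 with the nearest TSS only or the representative TSS only, beside 7.58%, 12.5%, 7.71% and 9.07% of all protein-coding genes. It was 13 in the stronger 1087 optimal peaks and 24 in the strongest 4348 pooled peaks. From 1 replicate alone it ranged from 19 to 20, the count with any peak from 33 to 37, the median summit position from -32 to -8 bp, and shared peaks from 9 to 11. The median signal of 78.2 became 79.4 without replicate 1 and 103 without replicate 2 on the pooled scale, so both values lay above it. The 10 shared peaks fell to 3 at 200 bp, 1 with the nearest TSS only and 5 in the stronger 1087 peaks, as these settings admit fewer genes or peaks. They numbered 8 with the representative TSS only, 11 in the strongest 4348 pooled peaks and 15 at 1000 bp. Shared peaks of all protein-coding genes were not counted under these settings. TCT matches numbered 18 at representative TSSs (46.2%), beside 64.8% of large-subunit genes and 1.2% of all protein-coding genes. They numbered 21 with starts from -5 to 5, and 28 with starts from -12 to 25, a window chosen after seeing the data. Shares over all protein-coding genes were not counted for these 2 windows. Of 65 member signals recomputed from 1 replicate, 23 moved beyond the spread between replicates. That count does not mark the least stable signals, because a small change can exceed a small spread. RpS5a, from 123 to 127, counted as moved. RpS12, at 144, fell to 79.4 without replicate 1 and rose to 181 without replicate 2, and did not count as moved. Depth was unknown. No paired analysis was possible because the libraries form a single group.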

Other observations

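A pooled summit inside the gene was also found in 13 small-subunit genes, more than 500 bp from any of their start sites, and 0 of these were in the optimal list. The share of 33.3% stands beside 24 of 54 large-subunit genes (44.4%) and 5887 of 13945 protein-coding genes (42.2%). These shares were not adjusted for gene length, although a short gene has little or no room for such a summit. The median lengths were 1356 bp for small-subunit, 1315 bp for large-subunit and 2166 bp for all protein-coding genes. Among them, RpS3 had a signal of 57.9 at 650 bp downstream of a TSS. Others were RpS27A with 47.6 at 644 bp, RpS6 with 43.8 at 610 bp and sta with 43.0 at 830 bp. Of the 13 genes, 6 had no optimal peak at a start site.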
